A study of Mus musculus with 28 samples.

Results

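Peptidoglycan (PGN), the sugar and peptide mesh of bacterial cell walls, was compared with phosphate-buffered saline (PBS) in resident peritoneal macrophages of mice. The comparison holds the 4 arrays titled for PGN and the 4 titled for PBS, 8 of the 28 arrays of the series, and was made over the probe sets that carry 1 gene symbol. Mice of both groups were wild type on a C57BL/6 background, received 1 agent into a vein at 7 to 8 weeks of age, and gave their macrophages 3 to 4 weeks later, at 10 to 12 weeks of age, which the titles give as 3 weeks. The PGN was a commercial preparation. The 20 other arrays, 4 in each group, come from wild-type mice given lipopolysaccharide (LPS), imiquimod (IMQ) or β-glucan (BG), and from uninjected mice that either lacked ATF7 or were wild type. The cells were washed from the peritoneal cavity with no thioglycollate, kept overnight without serum, and rinsed to remove cells that did not adhere. The comparison asks what an encounter with PGN had left in these cells weeks later, a question of trained immunity, in which innate cells keep a changed response.

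Peptidoglycan fragments are sensed inside the cell by NOD1 and NOD2, which recognise different muropeptides, and at the surface bacterial cell-wall preparations act through TLR2. Both routes lead to NF-κB, and transporters of the SLC15 family and SLC46A3 carry muropeptides into the cytosol. Large peritoneal macrophages are long-lived cells that depend on the transcription factor GATA6.

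Markers of the labelled cell type were present. On the log2 signal scale, the pan-macrophage marker Adgre1 lay between 12.33 and 12.39 in PGN arrays and between 12.33 and 12.44 in PBS arrays, and Gata6 between 10.24 and 10.47 in PGN arrays and between 10.19 and 10.68 in PBS arrays. The resident marker Timd4 spread more widely in PBS arrays, from 9.40 to 11.27, than in PGN arrays, from 10.75 to 10.96. The mean level of 33 large peritoneal macrophage genes ranged from 9.94 to 10.07 in PGN arrays and from 9.74 to 10.14 in PBS arrays. The B cell marker Cd79a was also present, at 10.05 to 10.47 in PGN arrays and 9.95 to 10.42 in PBS arrays, and 0 of 24 B cell markers tested differed past the threshold. The summed level of that list, as a mean over its members, ranged from 8.12 to 8.52 in PGN arrays and from 8.12 to 8.45 in PBS arrays. The T cell markers Cd3d and Cd3g, the mast cell markers Cpa3 and Cma1 and the neutrophil marker S100a9 stayed under the background floor of 6.32, the 95th percentile of odorant and vomeronasal receptor probe sets. Other markers of those cells passed the filter near the floor, with the T cell marker Cd3e at 6.25 to 6.69 in PGN arrays and 6.49 to 6.63 in PBS arrays, and the neutrophil marker S100a8 at 6.42 to 6.76 in PGN arrays and 6.15 to 6.62 in PBS arrays. The eosinophil markers lay above it, Siglecf at 7.08 to 7.27 in PGN arrays and 6.99 to 7.27 in PBS arrays, and Il5ra at 7.40 to 7.93 in PGN arrays and 7.22 to 8.04 in PBS arrays. The levels of 2 marker lists did not overlap between the groups. That of 22 monocyte-derived macrophage and dendritic cell markers ranged from 8.70 to 8.77 in PGN arrays and from 8.49 to 8.68 in PBS arrays, and that of 5 erythroid and platelet markers from 8.31 to 8.42 in PGN arrays and from 8.08 to 8.29 in PBS arrays. None of their members was called, and their part in the results was not tested. The list of eosinophil, mast cell and neutrophil markers ranged from 7.96 to 8.01 in PGN arrays and from 7.85 to 7.97 in PBS arrays. Arrays of 1 group correlated at 0.991 to 0.996, and array medians lay between 107.6 and 110.4 in linear signal. In whole cell populations, fewer cells of a type and less RNA per cell cannot be told apart.

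PGN arrays differed from PBS arrays mostly by small amounts. Vegfa, which was higher in PGN arrays, had the smallest p of all genes tested. Of 13512 genes tested, 528 (3.91%) passed limma's test at a Benjamini-Hochberg adjusted p under 0.05. Of these, 283 (2.09%) were higher and 245 (1.81%) lower in PGN arrays. The called differences had a median size of 0.25 on the log2 scale, and 21 genes (0.155%) moved by at least 1.5-fold, 14 up (0.104%) and 7 down (0.0518%). For 468 called genes (3.46%), out of the 528, the 4 arrays of one group all lay beyond the 4 of the other. Called or not, 1509 genes (11.2%) had such separate groups, and the 468 are among them. Both percentages are shares of the 13512 genes tested, not of the called genes. The count of called genes was sensitive to single arrays: it was 341 without PGN replicate 1, 311 without PGN replicate 3, 283 without PGN replicate 4, 336 without PBS replicate 3 and 340 without PBS replicate 4. It was 272 when the spread was estimated from the 8 arrays alone, and 520 of 21789 when every probe set with 1 symbol was tested with no filter.

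**Figure D1:**
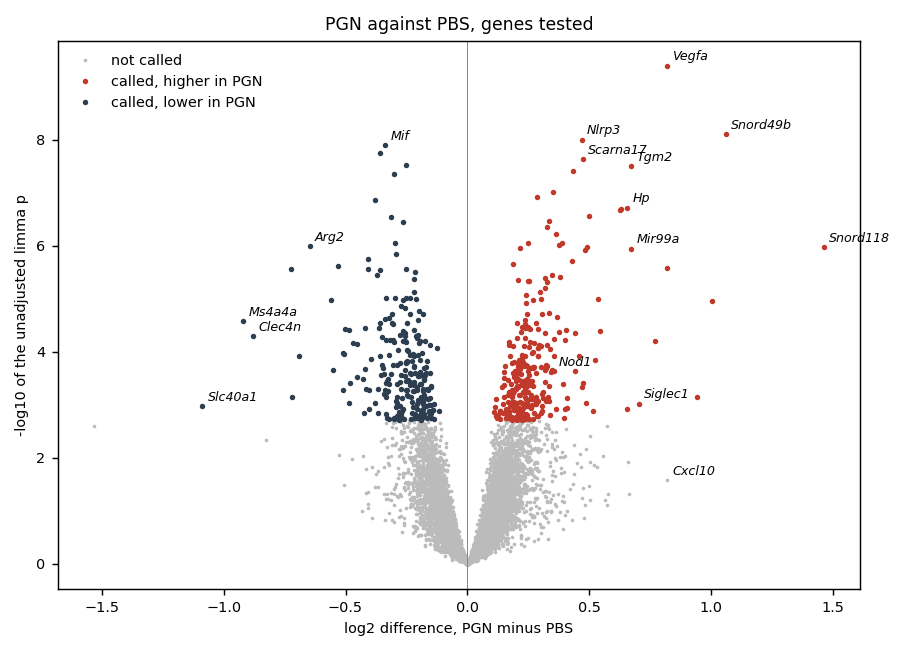
Each point is 1 of the 13512 genes tested, with the log2 difference (PGN minus PBS) across and −log10 of the unadjusted limma p up, and called genes coloured by direction. Vegfa stands highest at a difference of 0.82, and most called genes lie within a narrow band around 0.

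Probe sets without a gene also differed between these groups. Among 12146 probe sets with no gene in the platform table, 299 (2.46%) were called between PGN and PBS arrays, 112 higher (0.922%) and 187 lower (1.54%), and 346 of the 6954 above the floor (4.98%). Probe set 10338001, which had the smallest p among them, read 10.81 to 10.89 in PGN arrays, against 11.42 to 11.57 in PBS arrays. It read 10.81 to 11.02 in IMQ arrays, and all 20 arrays outside the PGN and IMQ groups lay between 11.29 and 11.60. Of the 12146 probe sets with no gene, 11 had all 8 PGN and IMQ arrays above the other 20 and 19 had them below. Among genes tested, 67 had all 8 PGN and IMQ arrays above the other 20 and 18 had them below. Vegfa, Tgm2 and Nlrp3, described below, are among the 67. The labels give no batch, and the part of this separation of 8 arrays in the gene results was not tested.

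Small nucleolar RNAs, microRNAs and predicted genes are set aside here; among the other called genes whose groups did not overlap, the largest rises were those of Vegfa, Siglec1, Tgm2, Hp and Myo10. The small nucleolar RNA Snord118 and 3 others rose by more than Vegfa. Vegfa, the angiogenic growth factor, read 8.56, 8.88, 8.84 and 8.66 in the 4 PGN arrays, against 7.74, 7.88, 8.10 and 7.95 in the 4 PBS arrays. All PGN arrays lay above all PBS arrays, a difference of 0.82 ± 0.086 (SE, n = 4 each; limma adjusted p = 5.4e-06), or 1.76-fold. Tgm2, a transglutaminase that crosslinks proteins, read 9.86, 10.05, 9.83 and 9.84 in PGN arrays, against 9.11, 9.13, 9.24 and 9.41 in PBS arrays. It rose by 0.67 ± 0.088 (limma adjusted p = 5.35e-05) with no overlap. Hp, which encodes the haemoglobin-binding protein haptoglobin, rose by 0.66 (limma adjusted p = 0.000179). Its PGN arrays spanned 11.68 to 11.79, and its PBS arrays fell into 2 pairs, replicates 1 and 2 at 11.34 and 11.32 and replicates 3 and 4 at 10.89 and 10.78. Myo10, a filopodial myosin, rose by 0.62 (limma adjusted p = 0.000179), and Tgfbr3, the TGF-β co-receptor betaglycan, by 0.50 (limma adjusted p = 0.000217).

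Siglec1, the sialic acid receptor sialoadhesin, read 10.26, 10.34, 10.17 and 10.26 in PGN arrays, against 9.17, 9.38, 9.59 and 10.07 in PBS arrays. PBS replicate 4 came close to the PGN arrays, and the difference was 0.70 ± 0.19 (limma adjusted p = 0.0336). Its call ended when any array other than PBS replicate 4 was left out, with adjusted p up to 0.114. Itgal, the α chain of the integrin LFA-1, rose by 0.47 (limma adjusted p = 0.0192), a call that ended without PGN replicate 2 or PBS replicate 1 (up to 0.0568). Of the 10 largest rises, Itgal alone was not called against uninjected wild type (0.17, limma adjusted p = 0.269). Serpinb1a, an inhibitor of neutrophil proteases, rose by 0.52 (limma adjusted p = 0.0113), which ended without PGN replicate 3 (0.0593). Serinc2, a serine incorporator family member, rose by 0.54 (limma adjusted p = 0.00215), and the transcription factor gene Sox7 by 0.54 (limma adjusted p = 0.00527) (0.051 for Sox7 when only the 8 arrays were fitted).

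The largest falls among called genes whose groups did not overlap included surface receptors of the Ms4a and Clec4 families. Ms4a4a, a four-span membrane protein of macrophages, read 7.34, 7.30, 7.26 and 7.12 in PGN arrays, against 8.51, 7.91, 8.14 and 8.13 in PBS arrays, a fall of 0.92 on the log2 scale (limma adjusted p = 0.00434) with no overlap. Its relative Ms4a7 fell by 0.55 (limma adjusted p = 0.014), a call that ended without PGN replicate 4, PBS replicate 3 or PBS replicate 4 (up to 0.0605). Clec4n, which encodes the fungal receptor dectin-2, read 9.86, 9.71, 9.76 and 9.70 in PGN arrays, against 10.19, 10.41, 10.86 and 11.08 in PBS arrays. The PGN arrays were tight and the PBS arrays spread, and the fall was 0.88 (limma adjusted p = 0.00601). Its neighbour in the family, Clec4d, fell by 0.20 (limma adjusted p = 0.00317). Both families were chosen after values were seen, and 1.81% of all genes fell and 2.09% rose. Of 10 Ms4a genes tested, 2 fell and 0 rose, while 6 had a positive difference and the median was 0.06. Of 8 Clec4 genes, 2 fell and 0 rose, 1 had a positive difference, and the median was -0.07. Set against uninjected wild type, Ms4a4a in PGN arrays differed by -0.78 (limma adjusted p = 0.00214) and Clec4n by -0.43 (0.0735, not called). Ms4a7 read 7.61 to 8.50 in uninjected wild-type arrays and 8.38 to 8.69 in PGN arrays.

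Arg2, the mitochondrial arginase, read 10.32, 10.03, 10.00 and 10.06 in PGN arrays, against 10.76, 10.66, 10.80 and 10.77 in PBS arrays, a fall of 0.65 (limma adjusted p = 0.000493). Pde3b, a phosphodiesterase that degrades cyclic AMP, fell by 0.51 (limma adjusted p = 0.00938), and Epb41l3, a membrane skeleton protein, by 0.56 (limma adjusted p = 0.00215). Gpr52, a receptor gene, fell by 0.53 (limma adjusted p = 0.000881). Adam4, Phxr4 and Spry3 completed the list, with falls of 0.72 (limma adjusted p = 0.000912), 0.69 (0.00975) and 0.72 (0.0285). Spry3, a Sprouty family member, read 6.93 to 7.10 in PGN arrays, while PBS replicates 1 and 2 stood at 7.24 and 7.36 and replicates 3 and 4 at 8.10 and 8.29. Uninjected wild-type arrays read 6.49 to 7.22 for Spry3. Its call ended without PGN replicate 1, 3 or 4 or PBS replicate 3 or 4 (adjusted p up to 0.125) and with only the 8 arrays (0.0977), where Phxr4 also ended (0.0642).

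**Figure D2:**
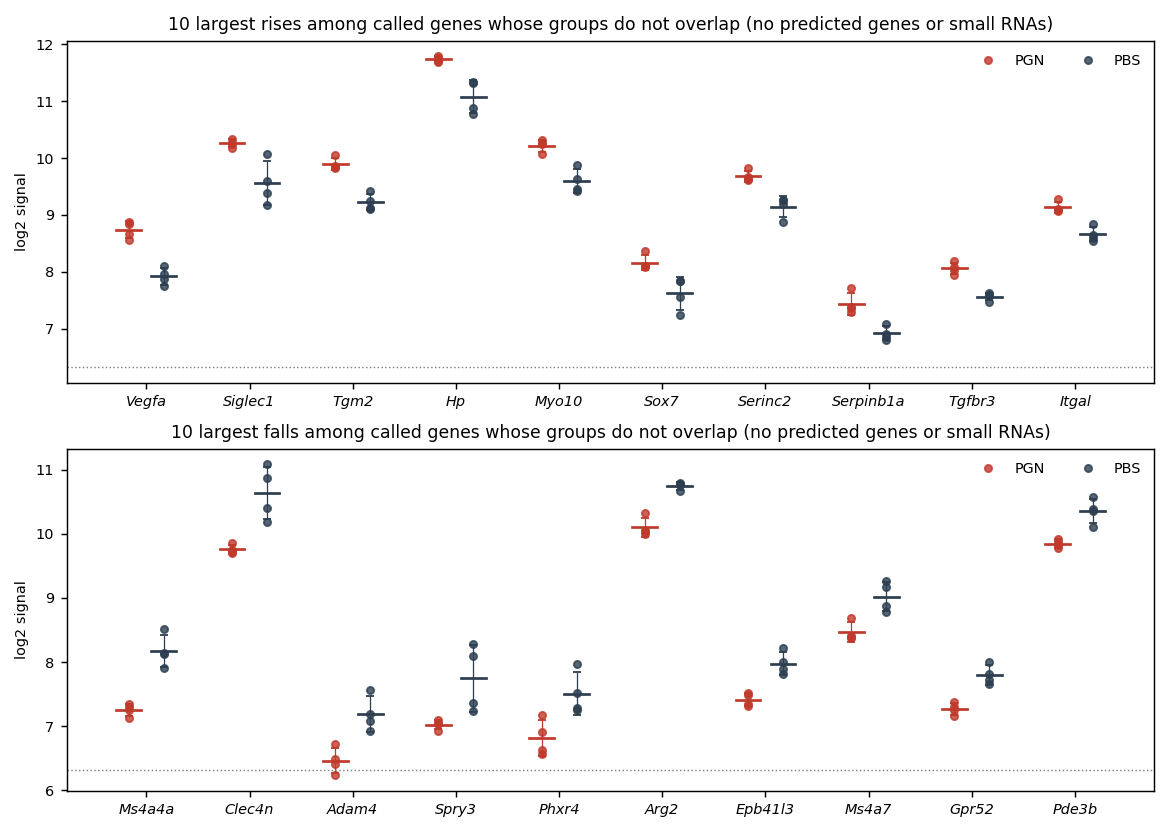
The log2 signal of each PGN array (red) and PBS array (dark) is shown for the 10 largest rises (top) and the 10 largest falls (bottom) of called genes with separate groups, leaving out predicted genes, small nucleolar RNAs and microRNAs, with bars for the mean, whiskers for 1 SD (n = 4) and a dotted line at the background floor. No gene's groups overlap, as the choice of genes requires. The spread of PBS arrays exceeds that of PGN arrays for most genes shown, among them Siglec1, Hp, Clec4n and Spry3. It does not for Vegfa, Serpinb1a, Tgfbr3 and Arg2.

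In the list drawn up for peptidoglycan sensing, the receptor Nod1 and the inflammasome sensor Nlrp3 rose. Nlrp3 is a member of the list but is not one of the peptidoglycan sensors named above. Of 18 members tested, 2 rose and 0 fell, beside 2.09% and 1.81% of all genes, with a median difference of 0.001 against 0.016 over all genes. In IMQ arrays, Nlrp3 read 9.21 to 9.42 and Nod1 8.83 to 8.99. Nlrp3 read 9.21, 9.40, 9.18 and 9.24 in PGN arrays, against 8.80, 8.76, 8.75 and 8.84 in PBS arrays, a rise of 0.47 ± 0.058 (limma adjusted p = 4.24e-05; exact two-sided permutation p = 0.0286, the smallest 4 against 4 arrays allow). Nod1, the sensor of diaminopimelic acid muropeptides, read 8.92, 8.996, 8.91 and 8.82 in PGN arrays, against 8.67, 8.78, 8.29 and 8.49 in PBS arrays. It rose by 0.35 ± 0.083 (limma adjusted p = 0.0145), and the call ended without PBS replicate 3 (0.0748) and with only the 8 arrays (0.0814). Pycard, the inflammasome adaptor ASC, rose by 0.27 (limma adjusted p = 0.00215), so that 2 of 16 inflammasome genes rose and 0 fell, beside the same 2.09% and 1.81%. Nlrp3 is counted in both lists.

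The other genes of that list gave no call. Nod2, the sensor of muramyl dipeptide, differed by 0.03 (limma adjusted p = 0.919), Tlr2 by -0.04 (0.846), and Pglyrp1, a secreted peptidoglycan-binding protein, by 0.10 (0.561). The muropeptide transporters Slc15a3, Slc15a4 and Slc46a3 differed by -0.01 (limma adjusted p = 0.958), 0.14 (0.13) and 0.11 (0.735). Slc15a4 passed without PBS replicate 1 (limma adjusted p = 0.0159). Slc15a2, an oligopeptide transporter, read 5.26, 5.29, 7.12 and 6.13 in PGN arrays, against 8.27, 7.87, 7.95 and 5.85 in PBS arrays. Those groups overlap, the PGN mean was under the floor, and the limma adjusted p was 0.0601. It passed without PGN replicate 3 (0.0272), without PBS replicate 4 (0.00695) and with quantile normalisation again (0.0436). Ripk2, the kinase downstream of both NOD proteins, was not among the genes tested.

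Signalling adaptors and feedback genes moved little. Of 22 NOD and TLR adaptors, 0 rose and 2 fell, beside 2.09% and 1.81% of all genes: Tirap, which bridges TLR2 and TLR4 to MyD88, by 0.26 (limma adjusted p = 0.00285), and Ikbkg, the NF-κB kinase subunit NEMO, by 0.29 (limma adjusted p = 0.0366). The Ikbkg call ended in 6 of 8 fits that left out 1 array, namely PGN replicate 1, 3 or 4 or PBS replicate 2, 3 or 4 (up to 0.13). Myd88 itself differed by -0.01 (limma adjusted p = 0.955). Zfp36, which destabilises cytokine mRNAs, fell by 0.33 (limma adjusted p = 0.00668). Cd180, a TLR homologue, rose by 0.24 (limma adjusted p = 0.00451).

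Of 28 cytokine and chemokine genes tested, 1 rose and 1 fell (7.14% called), beside 3.91% of all genes called. Ccl3, a chemokine, rose by 0.26 (limma adjusted p = 0.0201) and Ebi3, a subunit of interleukin-27, fell by 0.28 (limma adjusted p = 0.0191). Ccl3 lost its call without PGN replicate 1 or 4 or PBS replicate 1 or 3 (up to 0.0838), and Ebi3 without PGN replicate 3 or 4 or PBS replicate 1 or 2 (up to 0.0712). Tnf differed by 0.09 (limma adjusted p = 0.747), Il1b by -0.34 (0.277) and Cxcl2 by 0.26 (0.375), and Il6 was not among the genes tested.

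Most interferon-response genes had a positive difference, without any passing the test. Of 43 type I interferon genes, 41 had a positive difference, with a median of 0.27 against 0.016 over all genes, and 0 were called by limma (smallest adjusted p 0.0535, for the negative difference of Trim25). Of 16 interferon-γ genes, 15 were positive with a median of 0.28, and 0 were called. All PGN arrays lay above all PBS arrays for 5 of the 43 type I genes and 1 of the 16 interferon-γ genes. Among all genes tested, the groups did not overlap, in either direction, for 11.2%. Cxcl10, an interferon-induced chemokine, read 9.86, 10.42, 9.49 and 9.97 in PGN arrays, against 9.55, 9.92, 8.29 and 8.70 in PBS arrays. The groups overlap through PBS replicates 1 and 2, and the difference of 0.82 ± 0.35 had an adjusted p of 0.203. Fcgr1, the high-affinity IgG receptor, did not overlap and differed by 0.57 (limma adjusted p = 0.0586; 0.0366 without PBS replicate 4). At an unadjusted p under 0.05, 14 type I and 6 interferon-γ genes passed, beside 2419 of all 13512 genes (17.9%). No member of the MHC class I list (17 genes) or class II list (10 genes) was called, and Ciita, the class II transactivator, differed by 0.11 (limma adjusted p = 0.605).

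Of 40 oxidative phosphorylation genes tested, 10 (25%) rose and 0 fell, beside 2.09% of all genes, with a median difference of 0.10 against 0.016. Cox6c, a subunit of cytochrome c oxidase, read 12.13, 12.10, 12.15 and 12.11 in PGN arrays, against 11.75, 11.86, 11.85 and 11.89 in PBS arrays, a rise of 0.29 ± 0.04 (limma adjusted p = 0.000134). Ndufb9 and Ndufs7, subunits of complex I, rose by 0.36 (limma adjusted p = 0.000367) and 0.22 (0.000493). Uqcrb of complex III rose by 0.28 (limma adjusted p = 0.00446) and Atp5j of the ATP synthase by 0.17 (0.00683; 0.0614 with only the 8 arrays). The list's count was 5 without PGN replicate 2. By symbol family, grouped after values were seen, 9 of 41 genes with Nduf symbols, mostly complex I subunits and assembly factors, rose, and 0 members of the families fell. The rises were 2 of 8 for the symbols of complex III, 2 of 15 for those of complex IV and 2 of 17 for those of complex V. A symbol does not settle the complex of each member, such as Ndufa4. Among the Nduf calls, Ndufa4 was lost in 8 of 8 fits that left out 1 array. Ndufs3 and Ndufv2 were lost in 6, Ndufs8 in 5, Ndufa2 in 3, and Ndufb9 and Ndufs7 in 0. Ndufa13 and Ndufs6 were not followed. Ppargc1b, a coactivator of mitochondrial genes, rose by 0.34 (limma adjusted p = 0.0149), which ended without PGN replicate 2 or PBS replicate 3 or 4 (up to 0.0753) and with only the 8 arrays (0.117).

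Ribosomal protein genes and small nucleolar RNAs also lay higher. Of 41 ribosomal protein genes, 7 (17.1%) rose and 0 fell, beside 2.09% and 1.81% of all genes, among them Rps18 by 0.30 (limma adjusted p = 0.00215) and Rplp1 by 0.23 (0.00418), and the count of rises was 2 without PBS replicate 4. By symbol family, grouped after values were seen, 11 of 58 cytosolic ribosomal protein genes rose and 1, Rpl7l1, fell. Many of these genes have near-identical copies in the genome, so their signals are uncertain. Small nucleolar RNAs guide the modification or processing of ribosomal RNA, and their list here also held 3 Cajal body RNAs. Of its 44 members tested, 14 (31.8%) rose and 1 fell, beside the same shares of all genes, with a median of 0.18. Snord49b, singled out after its values were seen, read 10.66, 10.79, 10.45 and 10.52 in PGN arrays, against 9.47, 9.47, 9.50 and 9.75 in PBS arrays, a rise of 1.06 ± 0.13 (limma adjusted p = 4.24e-05). Snord118, likewise singled out, had the largest called difference of the comparison, 1.46 (limma adjusted p = 0.000493). Its PGN arrays read 7.97 to 8.51 and its PBS arrays 6.08 to 7.68. The C/D box members held 10 of the rises among 23 tested, and the Cajal body RNAs 2 among 3.

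**Figure D3:**
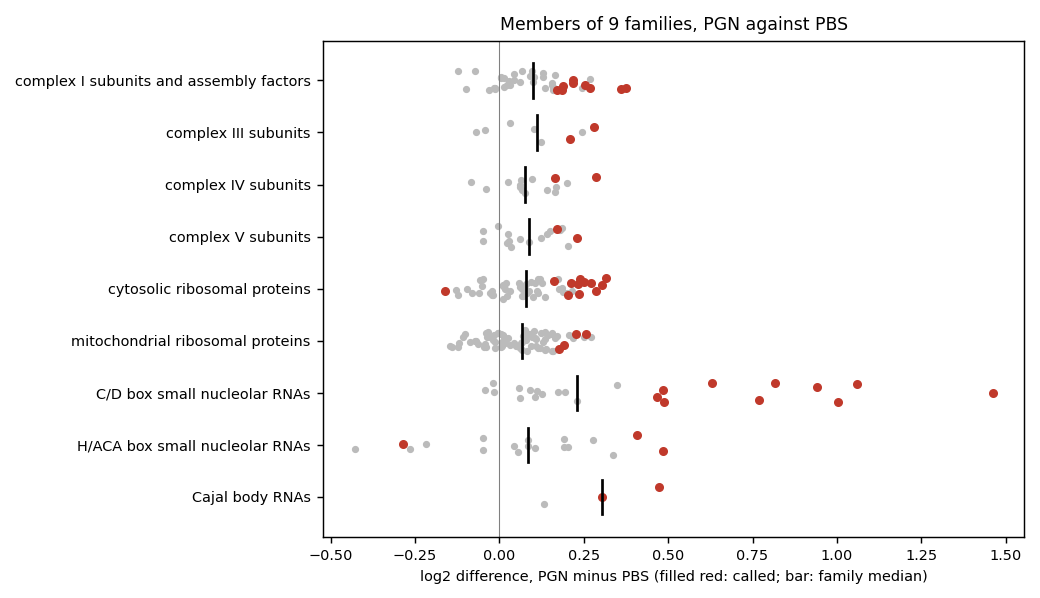
Each point is the log2 difference (PGN minus PBS) of 1 gene or small RNA in 9 symbol families, red where called, with a black bar at the family median. The C/D box small nucleolar RNAs reach furthest, to 1.46, and the respiratory complexes hold called points only on the positive side.

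**Figure D4:**
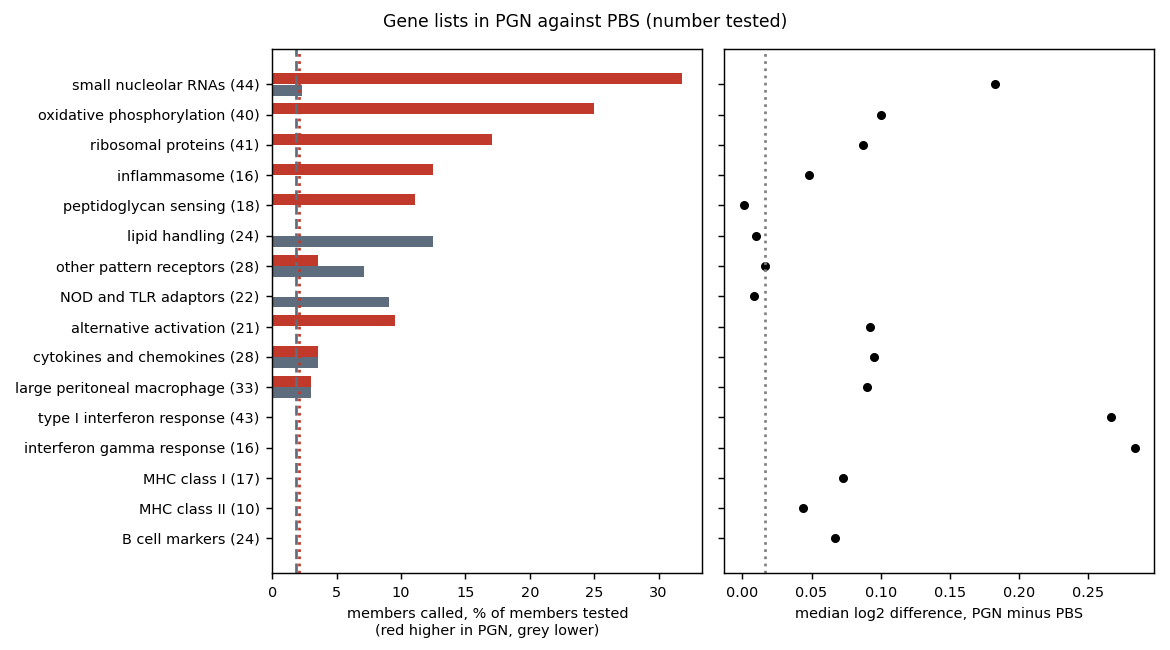
The left panel gives the percentage of tested members called higher (red) or lower (grey) in PGN arrays for 16 gene lists, with the number tested in parentheses and lines at 2.09% (dotted) and 1.81% (dashed) for all genes. The right panel gives each list's median log2 difference, with a dotted line at 0.016 for all genes; the interferon lists have the highest medians and no called member.

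Of 24 genes of the list of lipid handling, 0 rose and 3 fell, beside 2.09% and 1.81% of all genes, while 15 had a positive difference and the median was 0.01. The 3 that fell, Slc40a1, Spic and Hmox1, are known for iron and haem. Slc40a1, the iron exporter ferroportin, read 6.02, 6.20, 6.52 and 6.28 in PGN arrays, against 6.24, 7.06, 7.65 and 8.43 in PBS arrays. The groups overlap through PBS replicate 1, and the PGN mean was under the background floor, so no fold is given for the fall (limma adjusted p = 0.0361). Its call ended in 6 of 8 fits that left out 1 array, those without any PGN replicate or without PBS replicate 3 or 4 (up to 0.161), and with only the 8 arrays (0.145). Spic, a transcription factor of iron-recycling macrophages, fell by 0.50 (limma adjusted p = 0.00949; 0.0618 with only the 8 arrays). Hmox1, haem oxygenase, fell by 0.37 (limma adjusted p = 0.0226) with overlapping groups, and lost its call without PGN replicate 1 or 4 or PBS replicate 3 or 4 (up to 0.0904) and with only the 8 arrays (0.0767).

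Of 33 identity genes of large peritoneal macrophages, 1 rose and 1 fell (6.06% called), beside 3.91% of all genes called. Rara, a retinoic acid receptor, rose by 0.22 (limma adjusted p = 0.0392) and Thbs1, the matrix protein thrombospondin, fell by 0.40 (0.023). Rara kept its call only without PBS replicate 1 (adjusted p up to 0.117), lost it with only the 8 arrays (0.085), and Thbs1 lost it without PGN replicate 1, 3 or 4 or PBS replicate 1 or 3 (up to 0.0782). Gata6 differed by -0.01 (limma adjusted p = 0.979). Hif1a, the hypoxia factor whose target genes include Vegfa, fell by 0.26 (limma adjusted p = 0.0141), a call that ended without PGN replicate 3 (0.0594). Pros1, a bridging ligand for apoptotic cells, rose by 0.39 (limma adjusted p = 0.000489), and Gpx1, a glutathione peroxidase, by 0.24 (0.00243).

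Of 115 microRNA probe sets tested, 3 rose and 2 fell, near the shares over all genes, and they are singled out after values were seen. All 5 matched the RefSeq table (GRCm38.p6). The mature sequences of the pair that rose furthest are shown because both genes lie on chromosome 16, plus strand, at chr16:77598936-77599000 and chr16:77599657-77599750, 656 bases apart. Capitals mark the seed, bases 2 to 8, and the seeds differ.
miR-99a-5p: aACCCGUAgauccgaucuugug
let-7c-5p: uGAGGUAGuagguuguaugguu
Mir99a read 7.51, 7.36, 7.25 and 7.35 in PGN arrays, against 6.93, 6.75, 6.67 and 6.45 in PBS arrays, a rise of 0.67 ± 0.11 (limma adjusted p = 0.000493). Mirlet7c-1 was under the floor in all PBS arrays, so its rise is given as at least 1.05-fold (limma adjusted p = 0.0385). That call ended in 6 of 8 fits that left out 1 array, those without any PGN replicate or without PBS replicate 3 or 4 (up to 0.151), and with only the 8 arrays (0.0608). The array probes do not separate a mature microRNA from its precursor.

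ATF7 belongs to the ATF/CREB family, whose members bind the cAMP response element TGACGTCA. Atf7 itself read 10.71 to 10.79 in PGN arrays and 10.59 to 10.84 in PBS arrays (limma adjusted p = 0.603), and its other probe set gave a difference of -0.15. Promoter windows, 250 bases before to 50 bases after each start (RefSeq, GRCm38.p6), were available for 417 of 528 called genes. Both strands were searched for 7 motifs, all chosen after values were seen. The cAMP response element was in 4.8% of 229 higher and 5.85% of 188 lower genes, beside 3.34% of the 10740 genes tested that have a window. The other motifs are given in the same order. The κB motif was in 0%, 0.532% and 0.568%, and the interferon-stimulated response element in 3.49%, 3.19% and 3.66%. The AP-1 letters TGANTCA were in 8.3%, 7.45% and 6.47%, and the ETS letters CCGGAAGT in 8.73%, 12.2% and 8.07%. The hypoxia core ACGTG, which is no part of the cAMP element, was in 28.4%, 29.8% and 28%, and the nuclear respiratory factor 1 motif in 3.93%, 1.6% and 2.14%. Of all 32851 windows, 1.79% held the cAMP element. The windows of the 3 called genes with that element and the smallest p-values are shown, with the element in capitals.
Mif: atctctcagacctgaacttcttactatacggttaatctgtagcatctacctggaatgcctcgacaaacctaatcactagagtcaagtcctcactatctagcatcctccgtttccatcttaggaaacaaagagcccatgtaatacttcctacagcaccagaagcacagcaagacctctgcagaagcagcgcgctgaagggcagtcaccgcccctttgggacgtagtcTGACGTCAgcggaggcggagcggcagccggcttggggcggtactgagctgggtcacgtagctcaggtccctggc
Lmf2: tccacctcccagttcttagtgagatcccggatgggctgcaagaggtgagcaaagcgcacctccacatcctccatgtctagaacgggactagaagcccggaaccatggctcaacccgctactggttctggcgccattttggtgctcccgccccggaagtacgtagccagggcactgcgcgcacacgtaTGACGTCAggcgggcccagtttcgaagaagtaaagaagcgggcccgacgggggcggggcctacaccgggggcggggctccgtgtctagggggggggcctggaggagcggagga
Smdt1: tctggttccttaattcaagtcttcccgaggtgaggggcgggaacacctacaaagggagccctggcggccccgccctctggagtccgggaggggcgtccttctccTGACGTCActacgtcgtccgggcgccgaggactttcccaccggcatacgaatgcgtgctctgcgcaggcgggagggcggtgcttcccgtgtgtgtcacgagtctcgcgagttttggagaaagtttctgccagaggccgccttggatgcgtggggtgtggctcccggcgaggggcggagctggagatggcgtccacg
The windows lie at chr10:75860228-75860527 on the minus strand for Mif, chr15:89355610-89355909 on the minus strand for Lmf2, and chr15:82345796-82346095 on the plus strand for Smdt1. Mif, a cytokine that acts on macrophages, read 10.71, 10.71, 10.77 and 10.69 in PGN arrays, against 11.04, 11.07, 11.03 and 11.11 in PBS arrays, a fall of 0.34 (limma adjusted p = 4.24e-05). Lmf2 fell by 0.26 (limma adjusted p = 0.000242), and Smdt1, a regulator of the mitochondrial calcium uniporter, rose by 0.33 (0.000282). A match describes the letters only.

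The PGN arrays were set directly against the other ligands. Against IMQ, a TLR7 ligand, limma called 0 genes (0%), with 669 at an unadjusted p under 0.05 and a smallest adjusted p of 0.724. Against LPS, the ligand of TLR4, 1632 genes (12.1%) were called, 1229 higher (9.1%) and 403 lower (2.98%) in PGN arrays, and the count was 815 without PGN replicate 2, 1066 without LPS replicate 1 and 676 without LPS replicate 2. Vegfa was higher by 0.92 in PGN than in LPS arrays (limma adjusted p = 4.02e-07). Nos2, inducible nitric oxide synthase, averaged 6.78 ± 0.34 in PGN arrays and 8.11 ± 0.39 in LPS arrays (SD, n = 4 each; limma adjusted p = 0.00704). Nr1d1, a repressor of the circadian clock, averaged 9.04 ± 0.21 in PGN arrays and 10.25 ± 0.19 in LPS arrays (limma adjusted p = 3.81e-05). Cxcl9, an interferon-γ chemokine, was lower by 1.08 (limma adjusted p = 0.0246), a call that ended without PGN replicate 1 or 3 or LPS replicate 2 or 3 (up to 0.0935).

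Against BG, a ligand of dectin-1, 4301 genes (31.8%) were called, 2554 higher (18.9%) and 1747 lower (12.9%) in PGN arrays. Thbs1 averaged 12.52 ± 0.12 in PGN arrays and 10.92 ± 0.075 in BG arrays (SD, n = 4 each; limma adjusted p = 1.56e-11). Vsig4, a complement receptor of resident macrophages, averaged 9.92 ± 0.22 in PGN arrays and 8.30 ± 0.16 in BG arrays (limma adjusted p = 8.92e-09). Gata6 was higher by 0.92 in PGN arrays (limma adjusted p = 1.31e-06), and S100a6, a calcium-binding protein gene, was lower by 1.05 (0.000146). Against uninjected wild type, 4057 genes (30%) were called, 2822 higher (20.9%) and 1235 lower (9.14%), where Vegfa was higher by 0.89 (limma adjusted p = 4.21e-08).

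**Figure D5:**
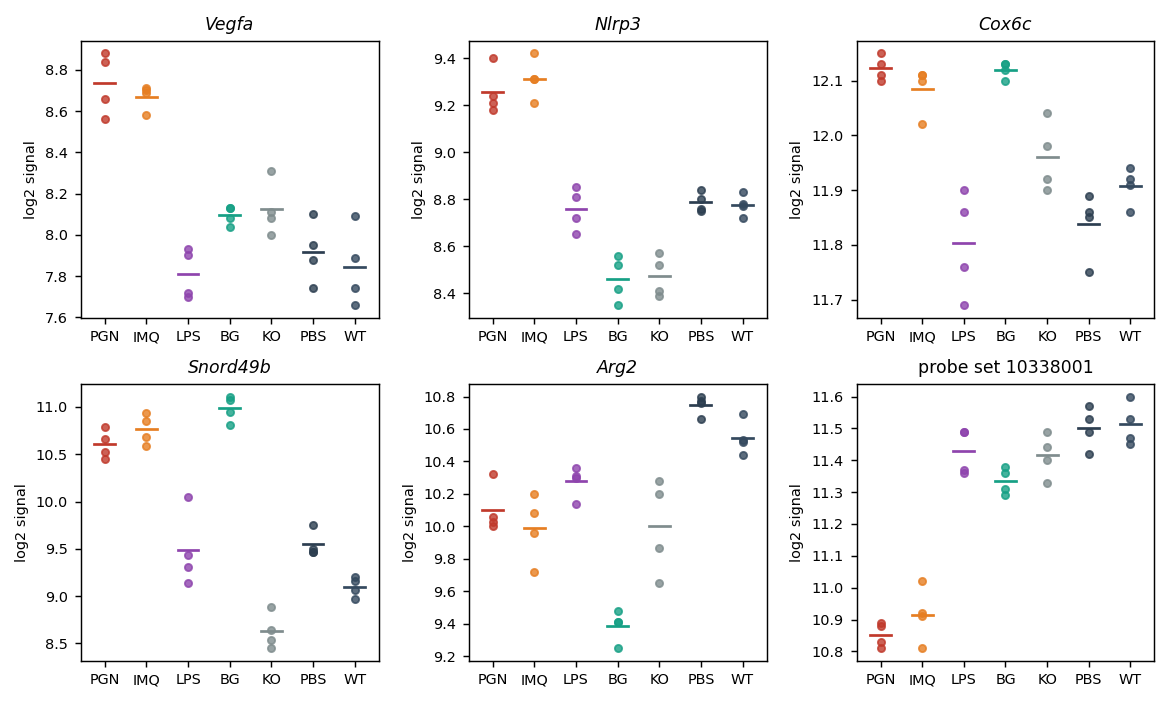
Each point is the log2 signal of 1 array in 7 groups of 4, with bars at group means, for 5 RNAs and for probe set 10338001, which has no gene in the platform table. The ranges of PGN and IMQ arrays overlap in every panel, and in the panel of the probe set all 8 lie at or below 11.02 while the other 20 lie at or above 11.29.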

How the data were processed

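RNA of resident peritoneal macrophages was hybridised to 28 one-colour Affymetrix Mouse Gene arrays, 7 groups of 4. The deposited values are linear intensities, made by the authors with RMA in Affymetrix Expression Console, per the submitters' processing notes (versions not given in the sources used here). The labels call the samples of a group independent. The log2 was taken here. Of 35556 probe sets, 21789 have 1 symbol; those above a floor of 6.32 in at least 4 of 28 arrays were kept (14800) and the probe set with the highest mean used per gene. Genes were fitted with limma 3.58.1 in R 4.3.3, 1 mean per group over all arrays, with an intensity trend and Benjamini-Hochberg adjustment per comparison. The number of arrays limits precision. Named genes are the 10 largest rises and falls where a call came with separate groups (predicted genes, odorant receptors, small nucleolar RNAs and microRNAs are counted, not named), fixed genes, up to 4 members per gene list and 4 rises and falls of each direct comparison; Mif, Lmf2, Smdt1, microRNAs, small nucleolar RNAs, symbol families and motifs were singled out after values were seen. Members and lists were chosen with earlier results of these data known. Figures used matplotlib 3.10.9.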

Additional observations from a re-analysis of the deposited data

Results flagged for a closer look

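Of 190 groups of 4 arrays examined, 12 held an array whose gap to its nearest neighbour, as a share of the group's range, passed Dixon's 95% critical value; chance gives about 1 in 20. PGN replicate 2 was the array in 7 of them: Tgm2 (0.874), Sox7 (0.93), Ms4a7 (0.898), Slc15a3 (0.977), Cd180 (0.831), Zfp36 (0.919) and Ndufa2 (0.845). PGN replicate 1 stood apart for Arg2 (0.83) and PGN replicate 3 for Samd9l (0.854). PBS replicate 4 stood apart for Slc15a2 (0.836) and Snord49b (0.906), and PBS replicate 2 for Hspa8 (0.996).

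Probe sets with no gene in the platform table lie outside the genes tested, and 299 of them were called between PGN and PBS arrays, 112 higher and 187 lower in PGN arrays. Their part in the gene results was not tested.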

How the results depend on the processing

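The 528 calls became 272 (150 higher, 122 lower) with only the 8 arrays of both groups in the fit, and leaving out 1 array gave 283 to 483 (172 to 231 higher, 107 to 264 lower). Quantile normalisation again gave 760, of which 404 were lower and 46.8% higher, against 53.6% before. Median-centred arrays gave 748, no intensity trend 458 and the mean of a gene's probe sets 519. The replicate block gave 508; same-numbered PGN and PBS arrays deviated together at 0.258, 0.187, 0.112 and 0.048, and 1 of 4 pairs was not over 0.1, so the numbers were not treated as pairs. The closest PBS array had the same number for 3 of 4 PGN arrays. Leaving out 1 array gave 676 to 1805 calls against LPS, 3640 to 3940 against BG, 2825 to 4694 against wild type and 0 against IMQ, which stayed at 0 in every setting run. Of 76 called genes followed, 38 kept the call in every setting and 0 changed direction. Of 19 uncalled genes, 5 passed in at least 1 setting (Slc15a2, Slc15a4, Fcgr1, Samd9l and Trim25) and 7 changed sign: Atf7 with the mean of its probe sets (-0.05), and, leaving out 1 array, Tlr2 (-0.104 to 0.006), Nod2 (-0.051 to 0.109), Slc15a3 (-0.079 to 0.056), Myd88 (-0.033 to 0.021), Tnf (-0.020 to 0.165) and Gata6 (-0.061 to 0.103). The cause was not tested. Levels near the floor of 6.32 limit Slc40a1, Spic, Adam4 and the microRNAs.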
